A study of Mus musculus with 6 samples.

Results

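The 10 genes described here carry long-chain fatty acids across the plasma membrane (Cd36, Slc27a2 and Slc27a4), bind them in the cytosol (Fabp1, Fabp2 and Fabp4) and couple them to coenzyme A (Acsl1, Acsl3, Acsl4 and Acsl5). They were taken by Ensembl identifier from the 56691 genes of the deposited table. All 10 were found and all 10 passed the expression filter, a mean FPKM (counts per kilobase of exon and per 1e6 library counts) of 1 or more. Poly(A) RNA was sequenced from livers of pregnant wild-type (WT) C57BL/6J females. In the PF group (n = 3 libraries) the dams ate a diet high in fructose (HFrD) in the later part of pregnancy. In the PC group (n = 3 libraries) they ate normal chow (NC). By the methods, mice of both groups were killed on the same day of late pregnancy. Both groups were pregnant, and neither carried a transgene or a deletion. The ages of the mice, and whether a library came from 1 liver or from several, were not given in the sources used here. The methods describe what HFrD contains and not what NC contains, so fructose and other differences between the feeds cannot be told apart.

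The liver takes up fatty acids released by adipose tissue and makes its own from sugar. CD36 and the fatty acid transport proteins (the Slc27 family) favour entry at the membrane, and fatty acid binding proteins (FABPs) keep the poorly soluble fatty acid dispersed in the cytosol. Long-chain acyl-CoA synthetases (ACSLs) then form acyl-CoA, which traps the fatty acid in the cell and commits it to oxidation, esterification or membrane lipid. Several of these genes, Fabp1, Cd36 and Acsl1 among them, are known targets of the peroxisome proliferator-activated receptors (PPARs), nuclear receptors that bind fatty acids and recognise direct repeats of the AGGTCA half-site.

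The start regions of 4 of the genes are shown because the results turn on them. Fabp1 had the highest level, Cd36 and Acsl1 had the lowest fold changes and were lower in every PF library after TMM scaling (not with library totals), and Acsl3 was the member with a higher mean in PF. Each run is 300 bases on GRCm38.p6, from RefSeq, 5′ to 3′ on the strand of the gene, with 250 bases before and 50 after the annotated start. They lie at chr6:71199629-71199928 (Fabp1, plus strand), chr5:17835847-17836146 (Cd36, minus strand), chr8:46470787-46471086 (Acsl1, plus strand) and chr1:78657575-78657874 (Acsl3, plus strand). Capitals mark the half-site AGGTCA, the direct repeat of it described next and the GC box GGGCGG, each on either strand.
Fabp1: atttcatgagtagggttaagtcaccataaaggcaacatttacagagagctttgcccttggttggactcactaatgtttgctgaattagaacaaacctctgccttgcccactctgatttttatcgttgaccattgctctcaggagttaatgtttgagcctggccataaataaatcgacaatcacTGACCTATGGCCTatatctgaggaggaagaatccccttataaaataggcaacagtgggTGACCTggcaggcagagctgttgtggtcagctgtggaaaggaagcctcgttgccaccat
Cd36: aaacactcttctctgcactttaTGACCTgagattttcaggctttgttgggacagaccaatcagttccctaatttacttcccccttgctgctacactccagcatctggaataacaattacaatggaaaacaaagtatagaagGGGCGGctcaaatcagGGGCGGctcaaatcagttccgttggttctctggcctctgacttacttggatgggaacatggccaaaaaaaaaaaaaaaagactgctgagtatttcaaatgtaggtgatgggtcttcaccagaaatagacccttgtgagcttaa
Acsl1: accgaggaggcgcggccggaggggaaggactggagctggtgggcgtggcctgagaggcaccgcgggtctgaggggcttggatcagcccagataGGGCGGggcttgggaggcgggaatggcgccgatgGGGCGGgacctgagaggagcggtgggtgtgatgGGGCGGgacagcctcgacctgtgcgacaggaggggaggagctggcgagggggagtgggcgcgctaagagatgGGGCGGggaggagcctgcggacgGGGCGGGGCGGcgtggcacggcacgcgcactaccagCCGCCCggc
Acsl3: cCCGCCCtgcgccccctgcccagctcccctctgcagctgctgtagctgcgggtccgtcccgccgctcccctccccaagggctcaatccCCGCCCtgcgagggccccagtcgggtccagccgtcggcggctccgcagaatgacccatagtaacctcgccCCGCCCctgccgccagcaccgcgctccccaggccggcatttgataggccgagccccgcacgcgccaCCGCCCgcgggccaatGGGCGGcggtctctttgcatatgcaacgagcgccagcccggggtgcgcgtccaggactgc

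RefSeq start regions were matched for 9 of the 10 members, with a pair of starts for Acsl1 and none used here for Fabp4. All motifs were searched on both strands. The direct repeat was searched as AGGNCA, any base and AGGTCA, letters that were chosen after the Fabp1 sequence was read and that contain the half-site. It lay in 1 of the 9 members. In Fabp1 it starts 67 bases before the annotated start and reads AGGCCATAGGTCA on the other strand. Of 32841 start regions of that length, 31 (0.0944%) held it. The half-site alone was in 3 members, Cd36, Slc27a2 and Fabp1, and in 16.3% of all regions. GC boxes were in 6 members, 7 of them in the first Acsl1 region and 5 in that of Acsl3, and in 35.7% of all regions. No member region held the E-box CACGTG, found in 7.15% of all regions. The 9-base TCACNCCAC, a sterol element, was in 1 member, in the second Acsl1 region, and in 1.24% of all regions. These are matches of letters only, and the counts per gene do not show which start was used.

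The libraries held 16119145 to 19676361 counts over all genes, and the member with the fewest counts in a library, Fabp4 in PC2, had 104. Levels are given as CPM, counts per 1e6 library counts after scaling by TMM, which lines up the bulk of the genes between libraries. TMM factors were 0.984 to 1.23 in PF and 0.850 to 0.908 in PC. Hepatocyte markers were high in each library, with a summed level of 85935 to 194738 CPM in PF and 246427 to 295194 CPM in PC over 8 genes, most of it from Alb. These sums did not overlap between the groups. The list was not uniform, with a lower mean in PF for 6 of the 8 genes and a higher mean for 2. The 2 were Ttr (log2 fold change 0.79, higher in every PF library) and Cps1 (0.26). The part of these markers in the differences of the members, which hepatocytes also express, was not tested. Of 10756 genes tested with edgeR's quasi-likelihood test, 0 passed an adjusted p of 0.05 (0%) and 1832 had an unadjusted p under 0.05 (17%), while DESeq2 called 493 (4.58%). In bulk tissue, fewer cells of a type and less RNA per cell cannot be told apart.

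Per length, the members spanned a wide range, and their order was nearly the same in each library. Fabp1, the liver fatty acid binding protein, had a mean of 8853 FPKM over the 6 libraries. It was followed by the very long-chain transporter and synthetase Slc27a2 (221 FPKM), Acsl5 (152 FPKM), the intestinal-type binding protein Fabp2 (99.6 FPKM) and Acsl1 (57.8 FPKM). Lower levels were found for Cd36 (37.5 FPKM), Acsl3 (16.7 FPKM), Acsl4 (15.0 FPKM), Slc27a4 (3.84 FPKM) and the adipocyte and macrophage binding protein Fabp4 (2.03 FPKM). Of the 9 neighbouring pairs in this order, 8 stood in the same order in all 6 libraries. The exception was Acsl3 and Acsl4, which lie close together. Acsl3 was above Acsl4 in the 3 PF libraries and in PC2, and below it in PC1 and PC3.

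After TMM scaling, 9 of the 10 members had a lower mean in PF than in PC and 1, Acsl3, a higher mean, where 47.8% of all tested genes had a lower mean. With p-values adjusted across the whole table, edgeR called 0 of the 10. At an unadjusted p under 0.05, 4 were lower (Cd36, Acsl1, Acsl4 and Slc27a4) and 0 were higher, where 7.9% of all tested genes were lower and 9.13% higher. DESeq2 called 2 of the 10 lower at an adjusted p of 0.05 (Cd36 and Acsl1), where it called 2.61% of all genes lower. Groups did not overlap for 3 members, all with PF below PC, as for 11.1% of all genes, and for 0 members with PF above PC, as for 11.8% of all genes. This separation was found with TMM factors and not without them. With library totals only, the scale of the deposited FPKM, 0 members parted the groups (PF below PC for 2.49% of all genes) and 5 of the 10 had a lower mean in PF. With TMM, the median log2 fold change of the members was −0.35, beside 0.02 over all tested genes. With library totals the median was 0.001 over the members, beside 0.39 over all tested genes.

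**Figure D1:**
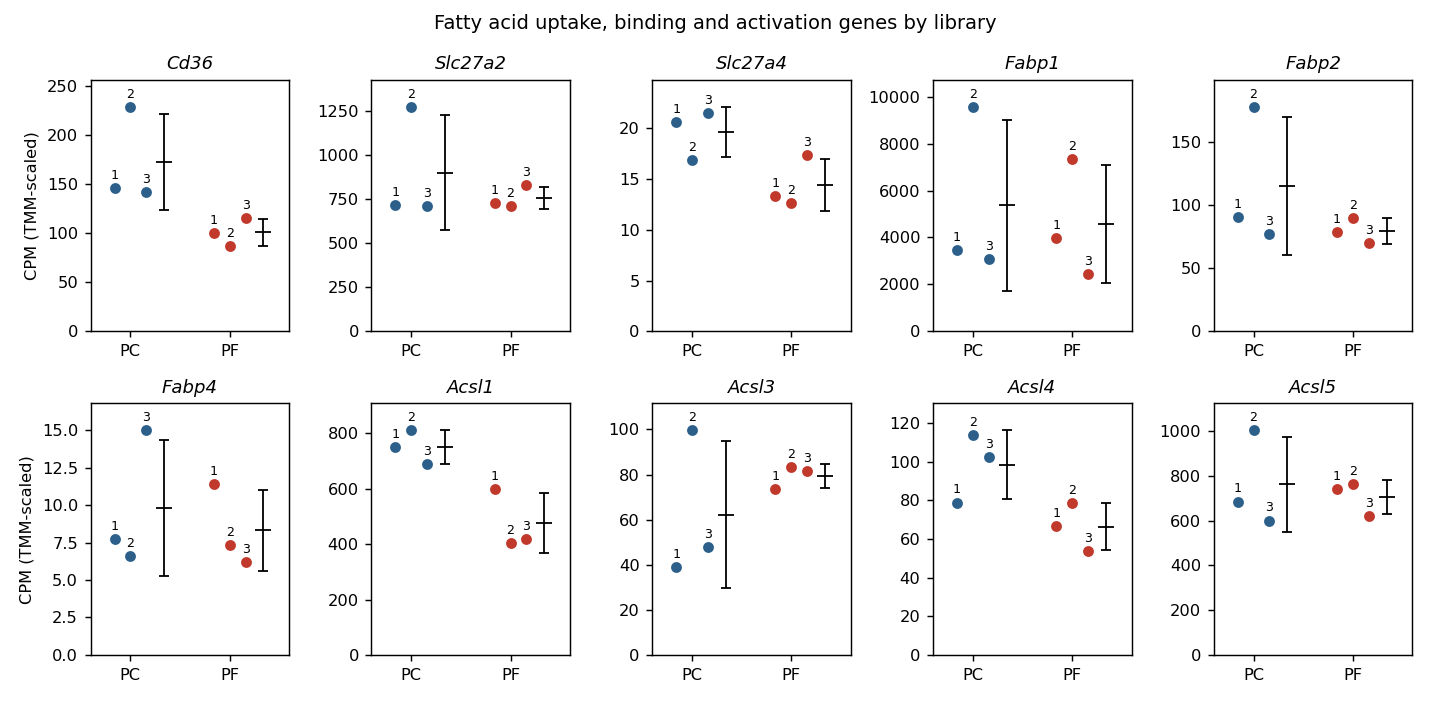
TMM-scaled CPM (linear axis from 0) of the 10 genes in each library, numbered by replicate, with the group mean ± SD (n = 3) in black. Cd36, Acsl1 and Acsl4 lie below PC in all 3 PF libraries on this TMM scale, and PC2 is the highest point in 8 of the 10 panels.

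Of the uptake genes, Cd36, a scavenger receptor that binds long-chain fatty acids at the cell surface, was lower in all 3 PF libraries after TMM scaling. Cd36 was at 99.9, 87.5 and 116 CPM in PF1, PF2 and PF3, compared with 147, 229 and 142 CPM in PC1, PC2 and PC3. The PF libraries lay close together and the gap between the groups was set by PF3 and PC3, and PC2 lay well above PC1 and PC3. The means were 101 ± 14.1 CPM in PF and 173 ± 49.1 CPM in PC (SD, n = 3). That is 1.71-fold lower, with a log2 fold change of −0.77 ± 0.23 (standard error). The adjusted p was 0.194 with edgeR and 0.0446 with DESeq2. Without PC2 the log2 fold change was −0.52, at an unadjusted p = 0.026 in the edgeR fit across all genes. With library totals the log2 fold change was −0.40, at an adjusted p = 0.324 in the edgeR fit across all genes. The groups then overlapped, with 34.3, 24.0 and 38.8 FPKM in PF1 to PF3 and 34.7, 58.0 and 35.2 FPKM in PC1 to PC3. The gene lies on chromosome 5 from 17986688 to 18093799 (GRCm39).

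Cd36 is also made by endothelial cells and macrophages, so the markers of these cells are given beside it. The summed level of 8 Kupffer cell and macrophage markers was 212 to 368 CPM in PF and 247 to 369 CPM in PC. That of 6 sinusoidal endothelial markers was 135 to 151 CPM in PF and 119 to 166 CPM in PC, and that of 6 capillary and arterial endothelial markers was 64.0 to 85.7 CPM in PF and 63.9 to 115 CPM in PC. All 3 lists overlapped between the groups, and PC2, where Cd36 was highest, had the lowest PC sum in each. One macrophage gene, the scavenger receptor Marco, went with Cd36 and was singled out after its values were seen. It was at 11.5, 7.57 and 7.03 CPM in PF and 15.2, 32.7 and 18.4 CPM in PC, with its highest value in PC2 as well. Of the 8 macrophage markers, 5 had a lower and 3 a higher log2 fold change in PF. Marco was the only 1 that parted the groups and the only 1 highest in PC2. The part of Marco in the Cd36 difference was not tested.

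Slc27a2, which encodes FATP2, a transporter that also activates very long-chain fatty acids, did not separate the diets. It was at 729, 711 and 827 CPM in PF1 to PF3, compared with 714, 1274 and 713 CPM in PC1 to PC3. PC1 and PC3 lay within the PF range, and PC2 stood alone above it. The log2 fold change was −0.25 (standard error 0.28, edgeR adjusted p = 0.687), and without PC2 it turned to 0.08.

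Slc27a4, which encodes FATP4, a family member best known from gut and skin, was expressed weakly. Levels were 13.3, 12.7 and 17.3 CPM in PF1 to PF3, compared with 20.6, 16.8 and 21.5 CPM in PC1 to PC3. PF3 lay just above PC2, and the other PF libraries below all PC libraries. The means were 14.4 ± 2.53 and 19.7 ± 2.48 CPM (1.36-fold lower, log2 fold change −0.44, standard error 0.18, edgeR adjusted p = 0.268). The unadjusted edgeR p of 0.0387 was 0.101 to 0.123 without PF1, PF2, PC1 or PC3, and with library totals the log2 fold change was −0.062 (unadjusted p = 0.788). Unlike the members described so far, Slc27a4 had its lowest PC value in PC2.

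Of the 10 members, Fabp1 had the widest spread between libraries of the same diet, as the ratio of the highest to the lowest library. Fabp1 was at 3968, 7326 and 2423 CPM in PF1, PF2 and PF3, and at 3460, 9576 and 3073 CPM in PC1, PC2 and PC3. The highest library was 3.02 times the lowest in PF and 3.12 times the lowest in PC, and the groups overlapped, with PF3 the lowest and PC2 the highest of all libraries. The fold change between diets was 1.17, a log2 value of −0.23 (standard error 0.58, edgeR adjusted p = 0.872). The log2 fold change was 0.49 without PC2 and −0.76 without PF2. Fabp1 alone took 0.273% to 0.869% of all counts of a library. The gene lies on chromosome 6 from 71176811 to 71182007 (GRCm39).

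PF2 and PC2, the libraries with the most Fabp1, also had the least Cps1, the first enzyme of the urea cycle, among the hepatocyte markers. Cps1 was at 633 CPM in PF2 and 580.1 CPM in PC2, compared with 1425 to 2098 CPM in the other 4 libraries. No other hepatocyte marker of the list had its lowest values in PF2 and PC2. Cps1 was singled out after its values were seen, and its relation to Fabp1 was not tested.

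Fabp2, better known from enterocytes, was at 78.5, 89.9 and 69.8 CPM in PF1 to PF3 and at 90.7, 178 and 77.0 CPM in PC1 to PC3. PC3 lay within the PF range and PC1 just above it, while PC2 stood apart. The log2 fold change was −0.54 (standard error 0.32, edgeR adjusted p = 0.429), and −0.08 without PC2. Of 6 enterocyte markers, Cdx2, Sis and Alpi had 0 counts in all 6 libraries. The summed level of the list, 34.8 to 576 CPM in PF and 152 to 307 CPM in PC, came almost wholly from Apoa4, which liver also makes.

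Fabp4, typical of adipocytes, macrophages and capillary endothelium, was the member with the lowest level and showed another order. It was at 11.4, 7.33 and 6.23 CPM in PF1 to PF3, compared with 7.77, 6.61 and 15.0 CPM in PC1 to PC3. PC3 and PF1 stood above the others, and the groups overlapped (log2 fold change −0.24, standard error 0.36, edgeR adjusted p = 0.779). Without PC3 the log2 fold change was 0.21. Of 6 adipocyte markers, 4 had at most 1 count in any library (Adipoq, Plin1, Lep and Retn), and the summed level of the list was 0.504 to 1.83 CPM in PF and 0.744 to 1.97 CPM in PC. Capillary and macrophage markers are given with Cd36.

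The synthetases went different ways. Acsl1, the isoform of mitochondria and endoplasmic reticulum that serves oxidation and triglyceride synthesis in liver, was lower in all 3 PF libraries after TMM scaling. Acsl1 was at 601, 405 and 420.3 CPM in PF1, PF2 and PF3, compared with 752, 811 and 690.5 CPM in PC1, PC2 and PC3. Here the PC libraries lay close together and PF1 stood above the other PF libraries, in contrast to Cd36. The means were 475 ± 109 CPM and 751 ± 60.2 CPM, 1.58-fold lower, with a log2 fold change of −0.66 ± 0.22 (standard error). The adjusted p was 0.219 with edgeR and 0.0391 with DESeq2. Without PC2 the log2 fold change was −0.60. The unadjusted p of this fit across all genes, 0.0203 with all libraries, was 0.0677 without PF3 and 0.0558 without PC1, and under 0.05 without any 1 of the others. With library totals the log2 fold change was −0.27, at an adjusted p = 0.489 in the edgeR fit across all genes. On that scale PF1 was the highest of all libraries, at 70.6 FPKM, compared with 38.1 and 48.3 FPKM in PF2 and PF3 and 60.9, 70.2 and 58.5 FPKM in PC1 to PC3. The gene lies on chromosome 8 from 46924074 to 46989088 (GRCm39).

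Acsl4, which prefers arachidonic acid and other polyunsaturated substrates, was lower by a similar factor, but the groups only just parted. Levels were 66.7, 78.4 and 53.9 CPM in PF1 to PF3, compared with 78.9, 114 and 103 CPM in PC1 to PC3. PF2 and PC1 differed by less than 1 CPM. The means were 66.3 ± 12.3 and 98.4 ± 17.8 CPM (1.48-fold lower, log2 fold change −0.57, standard error 0.21, edgeR adjusted p = 0.238, DESeq2 adjusted p = 0.131). The unadjusted edgeR p of 0.0260 was above 0.05 when PF1, PF3, PC2 or PC3 was left out, at 0.0583 to 0.0840. With library totals the log2 fold change was −0.22 (unadjusted p = 0.339) and the groups overlapped.

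Acsl3, found on lipid droplets and the endoplasmic reticulum, was the member with a higher mean in PF, and PC2 decided how large the difference was. Acsl3 was at 73.5, 83.1 and 81.6 CPM in PF1 to PF3, a narrow range, compared with 39.1, 99.6 and 47.8 CPM in PC1 to PC3. All 3 PF libraries lay above PC1 and PC3 and below PC2. The log2 fold change was 0.35 (standard error 0.33, edgeR adjusted p = 0.631). Without PC2 it was 0.87, at an unadjusted p = 0.00183 in the edgeR fit across all genes, and without PC1 it was 0.11. Acsl3 shares its locus with Utp14b on the same strand, a gene with 30.5% of the counts of Acsl3 over the 6 libraries, and reads over shared exons could have been given to either or to neither. Utp14b was at 32.3, 16.7 and 23.3 CPM in PF and 13.0, 26.6 and 16.1 CPM in PC, so that its lowest values were also in PC1 and PC3.

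Acsl5, the most abundant of the Acsl isoforms per length in each library, showed no separation. It was at 739.9, 762 and 621 CPM in PF1 to PF3 and at 686, 1004 and 601 CPM in PC1 to PC3. The log2 fold change was −0.11 (standard error 0.25, edgeR adjusted p = 0.859), and 0.14 without PC2. The rank per length rests on exonic lengths of 4864 bases for Acsl5 and 10483 for Acsl1. In CPM, which takes no account of length, Acsl1 was above Acsl5 in PC1 and PC3 and below it in the other libraries.

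**Figure D2:**
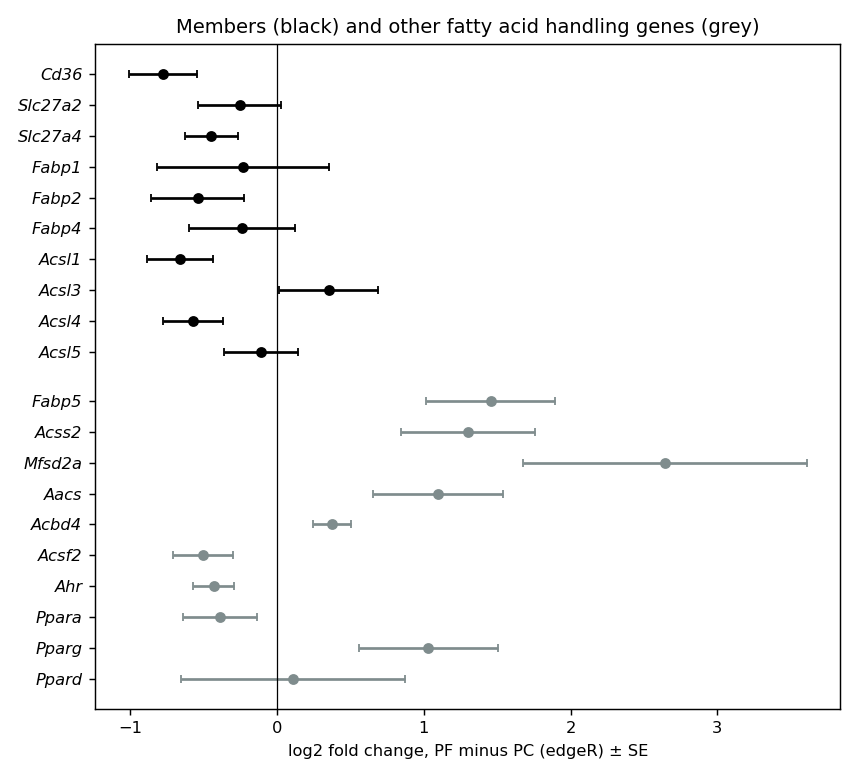
Log2 fold change of PF minus PC with its standard error, from edgeR (3 libraries in each group), for the 10 genes (black) and for 10 related genes (grey). Of the black points only Acsl3 lies above 0, while Fabp5, Acss2, Aacs, Mfsd2a and Pparg lie above 1.

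Ratios within a library do not depend on how libraries are scaled, so the makeup of the synthetases was compared as shares of the summed Acsl FPKM. Acsl5 took 63.7%, 68.4% and 65.0% in PF1 to PF3, compared with 59.7%, 63.0% and 56.3% in PC1 to PC3. The Acsl3 share was 7.07%, 8.33% and 9.53% in PF and 3.80%, 6.98% and 5.01% in PC. Both shares were higher in every PF library, with a narrow gap towards PC2. Acsl1 took 24.0%, 16.9% and 20.4% in PF and 30.4%, 23.6% and 30.0% in PC, and PF1 lay just above PC2. Means were 20.4 ± 3.56% and 28.0 ± 3.80% (SD, n = 3).

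Ratios between the 6 pairs of Acsl1, Acsl3, Acsl4 and Acsl5 were also read, and 3 did not overlap between the diets. These were Acsl4 over Acsl3, Acsl5 over Acsl3 and Acsl5 over Acsl4, the last at 10.8 to 12.8 in PF and 6.51 to 9.81 in PC. All ratios to Acsl1 overlapped. The ratio of Acsl4 over Acsl3 was 0.732, 0.760 and 0.533 in PF1 to PF3 and 1.63, 0.920 and 1.73 in PC1 to PC3. Thus Acsl4 had the lower FPKM of the pair in each PF library and in PC2, and the higher FPKM in the other PC libraries. The ratio of Acsl5 to Acsl3 was 6.81 to 9.022 in PF and 9.026 to 15.7 in PC, so that PF1 and PC2 all but met. The ratio of Acsl3 to Acsl1 was 0.294, 0.493 and 0.467 in PF and 0.125, 0.296 and 0.167 in PC, where PC2 just exceeded PF1. No test was run on these shares and ratios, since 3 against 3 libraries allow an exact permutation p no smaller than 0.1.

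**Figure D3:**
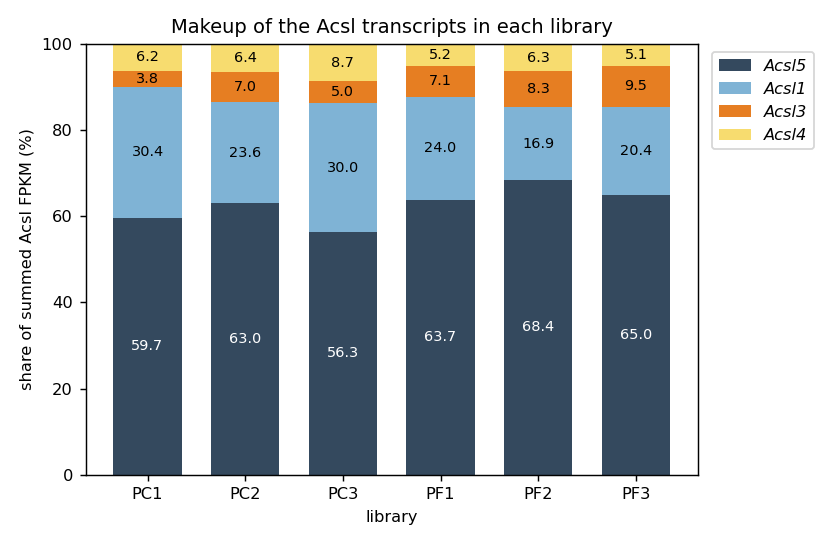
Share of each Acsl isoform in the summed Acsl FPKM of a library, as stacked bars in percent (Acsl6, under 0.01%, is not visible). Acsl1 takes 23.6% to 30.4% in PC and 16.9% to 24.0% in PF, and Acsl3 takes more in each PF library than in any PC library.

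In the other families the shares of all members overlapped between the diets. Fabp1 made up 96.8% to 98.7% of the summed Fabp FPKM in all libraries. FPKM divides by exonic length, 553 bases for Fabp1 and 3567 for Fabp5, so the sizes of these shares depend on those lengths. The share of Fabp5 was 0.918%, 0.613% and 1.40% in PF1 to PF3 and 0.232%, 0.265% and 0.292% in PC1 to PC3, without overlap. Slc27a2 and Slc27a5, the bile acid and very long-chain acyl-CoA synthetase, together made up nearly all of the Slc27 FPKM. Slc27a2 took 51.0%, 59.7% and 50.8% in PF and 42.5%, 67.6% and 43.6% in PC, so that PC2 again lay apart from PC1 and PC3.

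One NC library, PC2, set much of the spread. After TMM scaling, 8 of the 10 members had their highest level of all 6 libraries in PC2, the exceptions being Slc27a4 and Fabp4, and all 10 had it in a PC library. Over all tested genes, 14.1% were highest in PC2 and 44.8% in a PC library. With library totals, 5 of the 10 were highest in PC2 and the other 5 in a PF library, where 4.62% of all genes were highest in PC2 and 13.3% in a PC library. PC2 was at least 1.5 times the mean of PC1 and PC3 for 6 members (Cd36, Slc27a2, Fabp1, Fabp2, Acsl3 and Acsl5), up to 2.93 times for Fabp1, as for 9.35% of all genes. The median log2 ratio of PC2 to that mean was 0.65 over the members and 0.01 over all genes. Without PC2, 6 of the 10 members had a lower mean in PF, and the median log2 fold change of the members was −0.27, beside 0.03 over all genes.

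**Figure D4:**
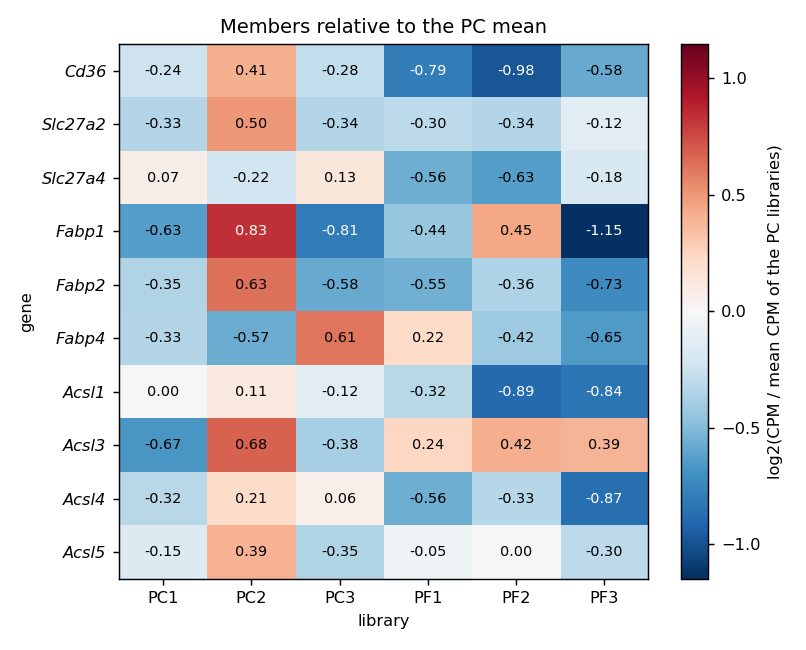
Log2 ratio of the CPM of each gene (rows) in each library (columns) to the mean of the 3 PC libraries, printed in each cell. PC2 is positive for all genes except Slc27a4 and Fabp4, with 0.83 for Fabp1. The PF libraries are negative throughout for Cd36, Slc27a2, Slc27a4, Fabp2, Acsl1 and Acsl4, and at or below 0 for Acsl5. PC1 and PC3 are negative as well for Cd36, Slc27a2, Fabp1, Fabp2, Acsl3 and Acsl5, where PC2 raises the mean. Only Cd36, Acsl1 and Acsl4 have every PF library below every PC library on this scale.

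Other genes of fatty acid handling were taken from a list of 50, 8 receptors among them, of which 49 were matched and 33 tested. Of these, 16 had a higher and 17 a lower mean in PF, with a median log2 fold change of −0.01. edgeR called 0 at an adjusted p of 0.05. At an unadjusted edgeR p under 0.05, 5 were higher and 2 lower, where 9.13% of all tested genes were higher and 7.9% lower. With library totals 9 were higher and 0 lower, where 3380 of all 10756 tested genes were higher and 226 lower. DESeq2 called 1 higher, Fabp5, where it called 1.97% of all genes higher. The 5 with a higher mean were Fabp5, Acss2, Aacs, Acbd4 and Mfsd2a, and the 2 with a lower mean were Acsf2 and Ahr.

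Fabp5, the epidermal-type fatty acid binding protein, was at 240.0, 294 and 226 CPM in PF1 to PF3, compared with 52.7, 166 and 58.9 CPM in PC1 to PC3. All PF libraries lay above PC2, the highest of the PC libraries. That is 2.74-fold higher, with a log2 fold change of 1.45 ± 0.44 (standard error). The adjusted p was 0.195 with edgeR and 0.0196 with DESeq2. Fabp5 has near-identical processed copies in the genome, so its counts are uncertain. Acss2, which makes cytosolic acetyl-CoA from acetate, was at 738, 397 and 527 CPM in PF and 119, 385 and 169.5 CPM in PC (2.47-fold higher, edgeR adjusted p = 0.225). PF2 and PC2 nearly met. Acss2 overlaps Gss on the other strand, which had 18.8% of its counts, and whether the counting used strand was not given in the sources used here. Aacs, which activates acetoacetate for lipid synthesis, was at 111, 114 and 105 CPM in PF and 25.4, 93.2 and 35.5 CPM in PC (2.14-fold higher, edgeR adjusted p = 0.272).

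Mfsd2a, a transporter of lysophosphatidylcholine that carries docosahexaenoic acid, was at 11.4, 74.8 and 45.8 CPM in PF1 to PF3 and at 2.18, 17.0 and 1.95 CPM in PC1 to PC3. PC2 lay above PF1, so the groups overlapped in spite of a 6.24-fold difference of the fitted means (edgeR adjusted p = 0.241). Acbd4, an acyl-CoA binding protein, was at 28.6, 27.1 and 28.2 CPM in PF and 21.3, 19.8 and 23.5 CPM in PC (1.30-fold higher, edgeR adjusted p = 0.222). Acsf2, a medium-chain acyl-CoA synthetase, was at 134, 129.9 and 101 CPM in PF and 156, 211 and 149 CPM in PC (1.41-fold lower, edgeR adjusted p = 0.275). Ahr, the aryl hydrocarbon receptor, stood in the list as a receptor and does not itself carry or activate fatty acids. It was 1.35-fold lower (edgeR adjusted p = 0.212), at 40.9 to 44.9 CPM in PF and 51.0 to 61.9 CPM in PC.

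The PPARs, receptors for fatty acids that act on several of the members, overlapped between the diets. Ppara, the main form in hepatocytes, was at 20.1, 36.2 and 34.2 CPM in PF1 to PF3, compared with 45.4, 41.4 and 31.5 CPM in PC1 to PC3 (edgeR adjusted p = 0.472). Pparg was low, at 3.88, 2.67 and 9.98 CPM in PF and 2.63, 2.73 and 2.75 CPM in PC (edgeR adjusted p = 0.325), and its mean was raised by PF3. Ppard ranged from 5.11 to 41.7 CPM in PF and from 7.96 to 34.0 CPM in PC, with no order by diet (edgeR adjusted p = 0.961).

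Scaling thus decided how large the differences were. With library totals in place of TMM the median over all tested genes was 0.39 on the log2 scale instead of 0.02. On that scale 0 members were lower at an unadjusted edgeR p under 0.05, where 226 of the 10756 tested genes were. Over the main setting and 17 alternatives, leaving out each library included, the log2 fold change of Cd36 ran from −0.90 to −0.37 and that of Acsl1 from −0.86 to −0.27. That of Acsl4 ran from −0.72 to −0.19, that of Acsl3 from 0.11 to 0.87 and that of Fabp1 from −0.76 to 0.49. Taking the median of all genes off each value removes a shift common to all genes by construction, so centred values show how a member stood against the other genes and do not bear on the choice of scaling.

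**Figure D5:**
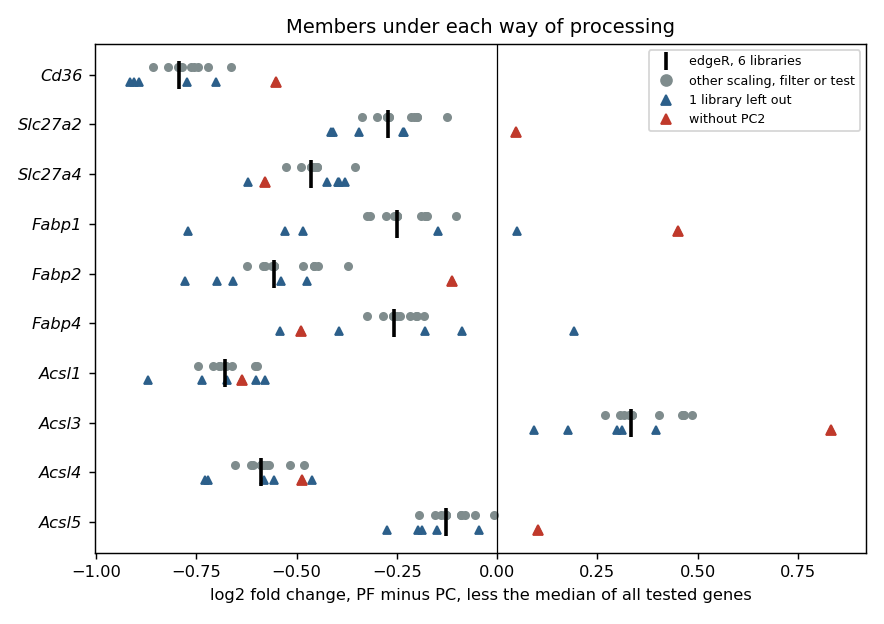
Log2 fold change of PF minus PC, less the median of all tested genes in the same fit, for each gene under edgeR with 6 libraries (bar), other scaling, filter or test (grey), and with 1 library left out (triangles, red without PC2). Centring takes out the common shift of a scaling. Cd36, Acsl1, Acsl4, Slc27a4 and Fabp2 lie below the median gene in all settings shown and Acsl3 above it, while Fabp1, Fabp4, Slc27a2 and Acsl5 lie on both sides.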

How the data were processed

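Poly(A) RNA from liver was sequenced in 6 libraries, grouped by the labels. The deposited table holds a raw count per gene and library and an FPKM value, which the authors scaled by exonic length and library total with no further factor. According to the submitters' processing notes, which give no order, HISAT2 (2.2.1), HTSeq (0.6.1), DESeq2 and cutadapt (1.9.1) were used, with GRCm39 as genome build. The strand setting was not given in the sources used here.

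Counts of the 10756 genes with a mean FPKM of 1 or more were tested with edgeR (4.0.16, R 4.3.3), quasi-likelihood, two-sided, PF minus PC, TMM factors, no covariate, Benjamini-Hochberg threshold 0.05. A standard error is the absolute log2 fold change over the root of F. DESeq2 (1.42.0), limma (3.58.1) on log2(FPKM + 1), other factors and filters, a replicate block and leaving out each library were alternatives. The edgeR fit was tested on simulated data, with the same dispersion for all genes and no outlying library. That does not show how the fit behaves where a library stands apart, as PC2 did for several members. The members and lists were chosen with earlier results of these data known. All members were named, and of the related genes those at an unadjusted p under 0.05 (up to 8) and the PPARs. No libraries of a group agreed within sampling noise. The study calls its replicates biological, and whether a library pooled mice was not given. Symbols came from a table of gene names, start regions from RefSeq (GRCm38.p6) and gene coordinates from the deposited table.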

Additional observations from a re-analysis of the deposited data

How the results depend on the processing

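The number of genes passing an adjusted p of 0.05 was 0 in edgeR and 493 by DESeq2, 180 with library totals only, 1 with filterByExpr, 555 without a filter and 4 and 2 with limma on log2(FPKM + 1) and log2(FPKM + 0.1), and ran from 0 to 403 with 1 library left out (403 without PF2). Members passing it were 0, and 2 by DESeq2. Members lower at an unadjusted p under 0.05 were 4, and 0 with library totals only and with both limma fits on FPKM, and ran from 2 to 3 with 1 library left out (2 without PF1, PF3 or PC1). Cd36 was among them in each of these 6 fits. Members with a lower mean were 9, and 5 in the 3 settings on library totals or FPKM, and 6 to 9 with 1 library left out. In those 3 settings the median over all tested genes was 0.39 with library totals and 0.29 and 0.36 with limma, on the log2 scale. Without a filter, 3 related genes passed an adjusted p of 0.05 (Fabp5, Acss2 and Mfsd2a), and 1 by DESeq2. With library totals only, 9 related genes were higher at an unadjusted edgeR p under 0.05, where 3380 of the 10756 tested genes were. Related genes higher at that level were 5 in the main fit, and 1 to 6 with 1 library left out. Those lower were 2, and 4 by DESeq2, 1 with upper-quartile factors or a mean of at least 5 FPKM, 6 without a filter and 0 with library totals only or limma on FPKM, and 0 to 4 with 1 library left out.

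The sign turned for members near 0. With library totals only, and with limma on log2(FPKM + 1) and log2(FPKM + 0.1), the log2 fold change was 0.11, 0.16 and 0.17 for Slc27a2, 0.064, 0.19 and 0.19 for Fabp1, 0.15, 0.11 and 0.16 for Fabp4, and 0.25, 0.28 and 0.28 for Acsl5. With 1 library left out the value ran from −0.40 to 0.083 for Slc27a2, −0.76 to 0.49 for Fabp1 and −0.26 to 0.14 for Acsl5, each highest without PC2. Fabp1 was also at 0.073 without PF3. Fabp4 ran from −0.53 to 0.21 (without PC3). Ppard was at −0.15 with limma-voom and −0.092 with a replicate block, and ran from −0.97 (without PF1) to 0.86 (without PC3), with −0.25 and −0.047 without PC1 or PC2. The cause was not tested. As a share of summed counts in place of FPKM, PF minus PC was −3.85 percentage points for Fabp1 (−0.55 in FPKM) and −0.053 for Fabp4 (−0.0058 in FPKM). Slc27a4 and Fabp4 had no value with a mean of at least 5 FPKM.

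Libraries share replicate numbers, and the deviations of same-numbered libraries correlated weakly or not at all. The r was −0.14, 0.24 and 0.08 over all tested genes for numbers 1 to 3. PF2 and PC2 correlated best with each other, but each library numbered 1 or 3 correlated best with a library of another number. The numbers were therefore not taken as pairs. With the replicate block, 0 genes passed an adjusted p of 0.05, 2039 genes against 1832 had an unadjusted p under 0.05, and 4 members were lower at that level. Library totals and limma on FPKM shift the split of genes at an unadjusted p under 0.05 from 53.6% higher in PF to 93.7%, 92.5% and 92.6%.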
